A study of Mus musculus with 6 samples.

Results

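The 6 genes described here, Fos, Sik1, Slc25a25, Arrdc2, Gadd45g and Tob1, are genes known for rapid induction by activity, cAMP, stress or steroid hormones, together with regulators of growth arrest. Each is represented by 1 probe set in the authors' deposited table of selected genes, so that they make up 6 of its 60 probe sets. The full value table holds 45101 probe sets, and no gene names were available for those outside the 60. Any further probe sets of the 6 genes were therefore not examined. The genes were chosen by name from the table of 60, which holds probe sets selected on the treatment difference in these same arrays. Their group differences are therefore what chose them and are given as a description, with no test.

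RNA was hybridised from the quadriceps of 6 mice of the utrn+/-;mdx genotype on the C57BL/10 strain, 1 array per mouse. All 6 mice lacked dystrophin and had 1 utrophin allele inactivated, and all were 20 weeks old. The treated group of 3 mice drank water with spironolactone, a mineralocorticoid receptor antagonist, at 37.5 mg/kg per day, and lisinopril, an angiotensin-converting enzyme inhibitor, at 10 mg/kg per day, from week 4 to week 20. The untreated group of 3 mice, of the same genotype, drank plain water. In each group mice 1 and 2 were male and mouse 3 was female, so that sex and mouse number cannot be told apart for mouse 3. The drugs were given together, so that the measurements do not separate one from the other.

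Immediate early genes such as Fos are transcribed within minutes of a stimulus, without new protein synthesis, through transcription factors that already sit on their promoters. In muscle, cAMP signalling through the factor CREB and its coactivators, calcium entry during contraction, and corticoid receptors are well-known inputs to such genes. Sik1 is itself a CREB target, and its kinase product restrains the CREB coactivators, which makes it a feedback component of the pathway.

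RefSeq promoter windows, from 250 bases before to 50 bases after an annotated transcript start on mouse build GRCm38.p6, were found for 5 of the 6 genes, with 3 alternative starts for Slc25a25. Sik1 had no matching entry. The windows come from the C57BL/6J reference, not from the mice studied. They are shown because cAMP input is a shared textbook feature of several of these genes. Capitals mark matches, on either strand, to the cAMP response element TGACGTCA, its core TGACG, the E-box CACGTG, the TATA box TATAAA and the CCAAT box CCAAT. The core lies within the full element, which holds it on both strands. The windows run 5′ to 3′ on the strand of the gene.
Fos, chr12:85473640-85473939, plus strand: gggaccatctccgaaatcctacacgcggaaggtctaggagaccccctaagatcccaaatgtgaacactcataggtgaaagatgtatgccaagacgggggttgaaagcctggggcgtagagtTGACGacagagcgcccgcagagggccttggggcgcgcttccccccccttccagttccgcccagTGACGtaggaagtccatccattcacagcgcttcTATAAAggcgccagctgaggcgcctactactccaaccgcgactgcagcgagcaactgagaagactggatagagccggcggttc
Slc25a25, the third listed start, chr2:32424017-32424316, minus strand: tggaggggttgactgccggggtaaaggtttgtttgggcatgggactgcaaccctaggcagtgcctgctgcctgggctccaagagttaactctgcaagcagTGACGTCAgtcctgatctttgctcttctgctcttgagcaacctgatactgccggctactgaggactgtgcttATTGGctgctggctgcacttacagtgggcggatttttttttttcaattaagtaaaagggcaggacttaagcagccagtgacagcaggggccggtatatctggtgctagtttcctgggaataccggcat
Gadd45g, chr13:51846425-51846724, plus strand: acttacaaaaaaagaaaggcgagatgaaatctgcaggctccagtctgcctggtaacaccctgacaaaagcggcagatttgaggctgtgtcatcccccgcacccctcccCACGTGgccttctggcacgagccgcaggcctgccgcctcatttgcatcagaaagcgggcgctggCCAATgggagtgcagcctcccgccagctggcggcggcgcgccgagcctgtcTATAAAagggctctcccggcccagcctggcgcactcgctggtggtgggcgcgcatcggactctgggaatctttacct
Tob1, chr11:94211204-94211503, plus strand: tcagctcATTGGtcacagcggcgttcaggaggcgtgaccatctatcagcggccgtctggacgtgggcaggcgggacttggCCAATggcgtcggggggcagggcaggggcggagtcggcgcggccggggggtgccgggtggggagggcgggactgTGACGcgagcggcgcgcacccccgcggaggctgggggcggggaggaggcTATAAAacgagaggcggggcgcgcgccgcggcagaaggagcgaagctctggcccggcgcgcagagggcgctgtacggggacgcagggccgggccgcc
Arrdc2, chr8:70839671-70839970, minus strand: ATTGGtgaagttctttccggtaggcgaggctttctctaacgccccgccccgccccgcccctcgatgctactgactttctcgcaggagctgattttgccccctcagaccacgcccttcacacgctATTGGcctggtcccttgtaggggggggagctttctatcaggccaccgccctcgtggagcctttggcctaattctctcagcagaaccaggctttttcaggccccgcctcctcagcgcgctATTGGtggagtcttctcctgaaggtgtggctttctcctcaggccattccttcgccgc

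The full cAMP response element was found in 1 of the 7 windows of these genes, at bases -150 to -143 of the third listed start of Slc25a25, against 1.79% of 32851 windows over all genes. Starts 1 and 2 of Slc25a25, which are not printed, held neither the element nor its core and only CCAAT boxes. Which start is used in these muscles was not examined. Cores lay at -129 to -125 and -66 to -62 in Fos and at -96 to -92 in Tob1. With the Slc25a25 start, 3 of the 7 windows held a core, against 20.8% of all windows. The E-box was found in Gadd45g alone among these genes, at -142 to -137, against 7.15% of all windows. TATA boxes began at -33 in Fos, -27 in Gadd45g and -47 in Tob1, against 13.6% of all windows, and the windows of Arrdc2 and Slc25a25 held none. CCAAT boxes were found in 6 of the 7 windows, all but that of Fos, against 37.4% of all windows. The core of corticoid receptor elements, AGAACA, present in 19.0% of all windows, and the CArG box of serum response factor, present in 1.63%, were not found in these 7 windows. These are letter matches within 300 bases. They say nothing of binding here, nor of sites that lie beyond the windows, which were not searched.

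**Figure D1:**
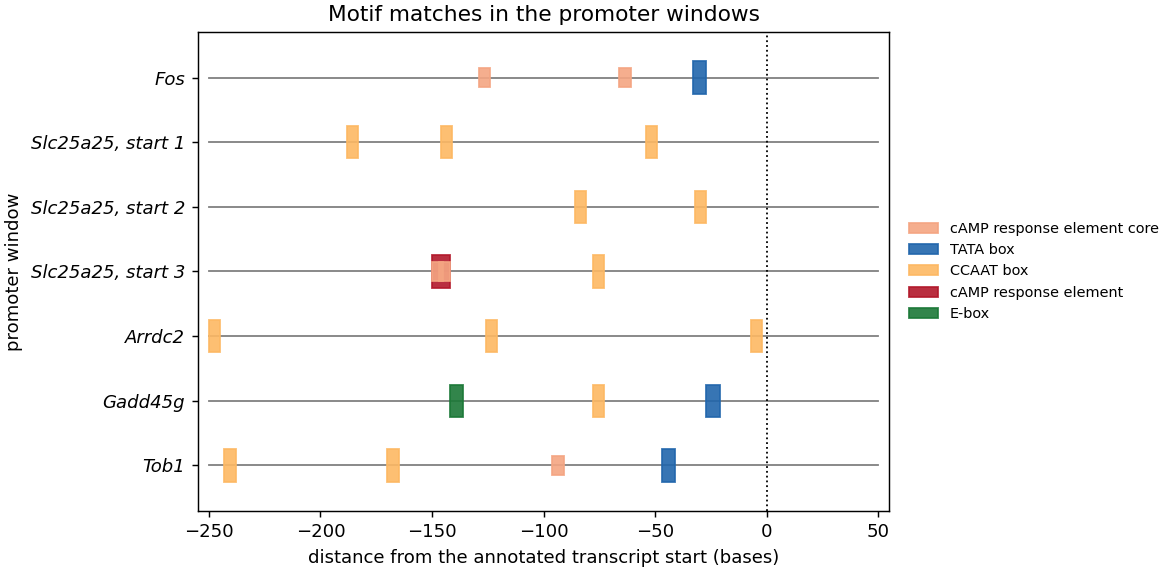
Motif matches in the 7 promoter windows of 5 genes, by distance from the annotated transcript start in bases, each box spanning the matched bases on either strand. The full cAMP response element lies at the third Slc25a25 start, and TATA boxes lie upstream of the starts of Fos, Gadd45g and Tob1.

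Of the 6 genes, 2 were lower and 4 were higher in treated mice. Fos, a subunit of the AP-1 transcription factor, and Sik1 were the lower ones. Slc25a25, Arrdc2, Gadd45g and Tob1 were the higher ones, by 2.10-fold to 4.26-fold. Treated and untreated values were fully separated for Fos, Sik1, Slc25a25 and Arrdc2, 4 of the 6 genes, against 14.3% of the 45037 probe sets tested (5.22% separated with treated mice lower and 9.1% with treated mice higher). The choice of the genes on this contrast raises their share. A difference of at least 2-fold was found for 0.293% of all probe sets (0.189% lower and 0.104% higher), and an unadjusted p under 0.05 for 7.64%. All 6 genes had both, as the selection requires. The limma test across all probe sets, with Benjamini-Hochberg adjustment, called 0 probe sets (0%), and an ordinary variance per probe set called 1.

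**Figure D2:**
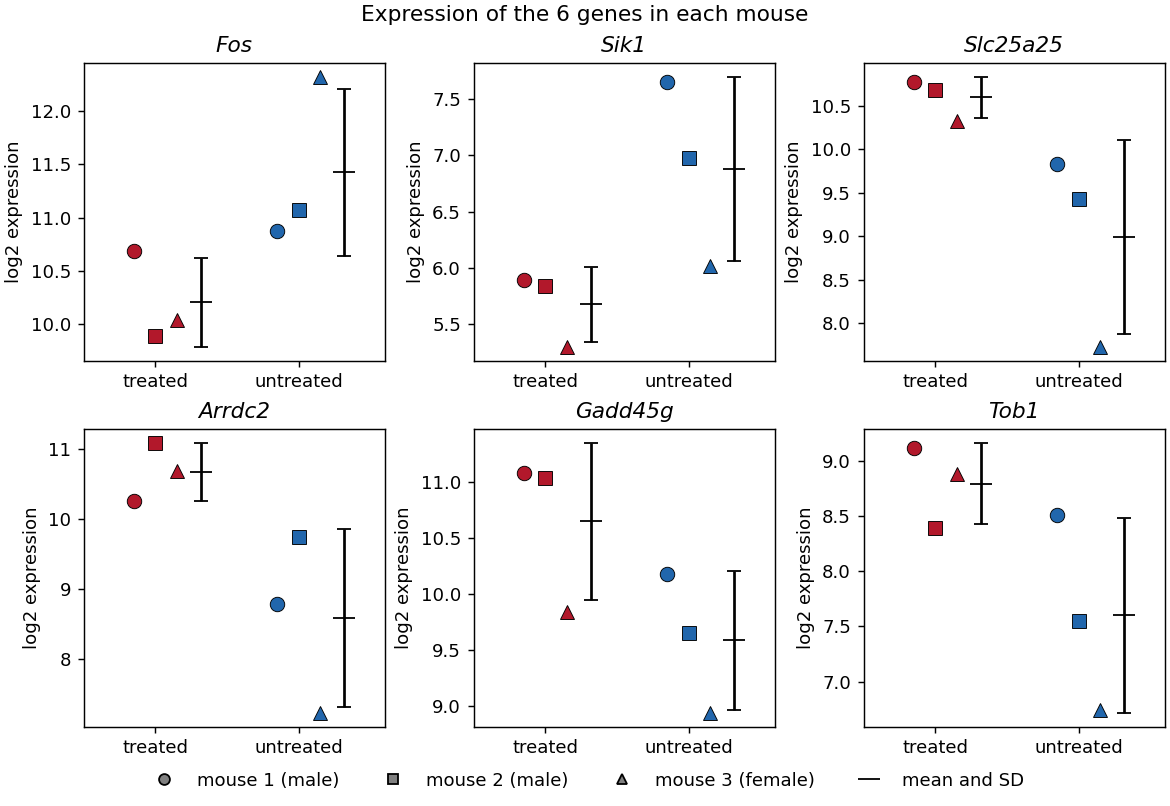
Log2 expression of the 6 genes in each mouse, treated mice in red on the left and untreated mice in blue on the right of each panel, with the group mean and SD (n = 3) beside the points. Circles and squares are the males and triangles the female of a group. The untreated female is the highest mouse for Fos and the lowest untreated mouse for the other 5 genes.

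Fos had log2 values of 10.7, 9.89 and 10.0 in treated mice 1, 2 and 3, against 10.9, 11.1 and 12.3 in untreated mice 1, 2 and 3. The groups were separated by 0.20 between treated mouse 1 and untreated mouse 1, and the untreated female stood above all other mice. The means were 10.2 ± 0.42 in treated and 11.4 ± 0.784 in untreated mice (SD, n = 3 each), a log2 difference of -1.22 (moderated SE 0.39), or 2.33-fold lower. Without untreated mouse 3 the difference was 1.71-fold.

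Sik1, the salt-inducible kinase known in mouse muscle to phosphorylate class II histone deacetylases, had log2 values of 5.89, 5.84 and 5.30 in treated mice 1, 2 and 3, against 7.65, 6.97 and 6.02 in untreated mice 1, 2 and 3. The groups were 0.12 apart between treated mouse 1 and untreated mouse 3, and the females were the lowest mouse of their groups. The means were 5.68 ± 0.33 in treated and 6.88 ± 0.82 in untreated mice (SD, n = 3 each), a log2 difference of -1.20 (SE 0.38). By the mean of its higher group, Sik1 is the dimmest entry of the selection. In the authors' deposited table its class means on the linear scale were 51.1 in treated and 117.6 in control mice, and 117.6 was the lowest higher-class mean among the 60 listed probe sets. The brightest unlisted probe set at 2-fold and an unadjusted p under 0.05 had a higher-group mean of 94.8. In 4 of the 6 mice, the 3 treated mice and untreated mouse 3, the Sik1 value was below the median log2 value of the array, 6.07 to 6.13. Both females are among them, and dim values are compressed, which limits the Sik1 fold and its comparisons between mice and sexes given below.

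Slc25a25, a calcium-regulated carrier that exchanges ATP-magnesium for phosphate across the inner mitochondrial membrane, had log2 values of 10.8, 10.7 and 10.3 in treated mice 1, 2 and 3, against 9.83, 9.43 and 7.72 in untreated mice 1, 2 and 3. The groups were 0.50 apart. The treated mice lay within 0.45 of one another, whereas the untreated mice spanned 2.10. The means were 10.6 ± 0.238 in treated and 8.99 ± 1.12 in untreated mice (SD, n = 3 each), a log2 difference of 1.61 (SE 0.49). Without untreated mouse 3 the difference was 1.96-fold in place of 3.04-fold.

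Arrdc2, an alpha-arrestin of the family whose members act as adaptors for ubiquitin ligases, had log2 values of 10.2, 11.1 and 10.7 in treated mice 1, 2 and 3, against 8.78, 9.74 and 7.22 in untreated mice 1, 2 and 3. The groups were 0.51 apart, and mouse 2 was the highest of each group. The means were 10.7 ± 0.417 in treated and 8.58 ± 1.27 in untreated mice (SD, n = 3 each). The log2 difference was 2.09 (SE 0.58), or 4.26-fold higher, which ranked first among the increases in the authors' deposited table. Without untreated mouse 3 it was 2.66-fold.

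The growth-arrest genes were less separated. Gadd45g, a stress-induced activator of p38 and JNK kinase signalling, had log2 values of 11.1, 11.0 and 9.84 in treated mice 1, 2 and 3, against 10.2, 9.65 and 8.93 in untreated mice 1, 2 and 3. The treated female lay below untreated mouse 1. Its means were 10.7 ± 0.704 in treated and 9.59 ± 0.625 in untreated mice (SD, n = 3 each), a log2 difference of 1.07 (SE 0.41), or 2.10-fold, the closest of the 6 genes to the 2-fold limit of the selection. Tob1, an antiproliferative protein of the BTG/TOB family that recruits the deadenylase complex to messenger RNA, had log2 values of 9.11, 8.39 and 8.88 in treated mice 1, 2 and 3, against 8.51, 7.55 and 6.74 in untreated mice 1, 2 and 3. Treated mouse 2 lay just below untreated mouse 1. Its means were 8.79 ± 0.37 in treated and 7.60 ± 0.885 in untreated mice (SD, n = 3 each), a log2 difference of 1.19 (SE 0.42), or 2.29-fold higher. Without untreated mouse 3 the difference was 1.67-fold for Gadd45g and 1.70-fold for Tob1, both under the 2-fold limit. In bulk muscle a change in RNA per cell and a change in the share of cells that express a gene cannot be told apart.

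The untreated mice varied more than the treated mice for 5 of the 6 genes, Gadd45g being the exception, against 60.6% of all probe sets. The SD was at least 2 times as large in untreated mice for 4 genes, Sik1, Slc25a25, Arrdc2 and Tob1, against 29.6% of all probe sets. The median SD over the 6 genes was 0.394 in treated and 0.852 in untreated mice, against 0.121 in treated and 0.147 in untreated mice over all probe sets. Untreated mouse 3, the female, was the untreated mouse farthest from the group mean for 5 of the 6 genes, against 40.3% of all probe sets, and Tob1 was the exception. These spreads come from the same arrays that chose the genes and are a description.

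Because the group difference was used in the choice, relations across mice were read as deviations of each mouse from the mean of its own group. Sik1, Slc25a25 and Gadd45g ordered the mice alike. Mouse 1 was the highest, mouse 2 the middle and the female the lowest in both groups for each of these 3 genes. Sik1 was nevertheless the gene that was lower in treated mice, while the other two were higher. The correlation of deviations over the 6 mice, which hold 4 free values after removal of the group means, was 0.957 for Sik1 with Slc25a25, 0.895 for Sik1 with Gadd45g and 0.781 for Slc25a25 with Gadd45g. Without untreated mouse 3 these were 0.991, 0.906 and 0.936 over 5 mice.

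Fos ran the other way within groups. Its deviations correlated negatively with those of each of the other 5 genes, from -0.425 with Gadd45g to -0.869 with Arrdc2, and the other 10 of the 15 pairs were positive. Fos and Sik1, the pair that was lower in treated mice, had a correlation of -0.708. This opposition rested on untreated mouse 3. Without that mouse the correlation of Fos with 4 of the 5 genes turned positive, 0.122 to 0.329, and that with Arrdc2 was -0.433. Arrdc2 also depended on that mouse: with Slc25a25 its correlation was 0.771 over 6 mice and -0.592 without untreated mouse 3, and with Tob1 it was 0.387 over 6 mice and -0.989 without that mouse. Its correlations with Sik1 and Gadd45g, 0.594 and 0.414 over 6 mice, became -0.590 and -0.302. In all, 8 of the 15 pairs changed sign without untreated mouse 3. All these correlations are descriptions of 6 arrays.

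**Figure D3:**
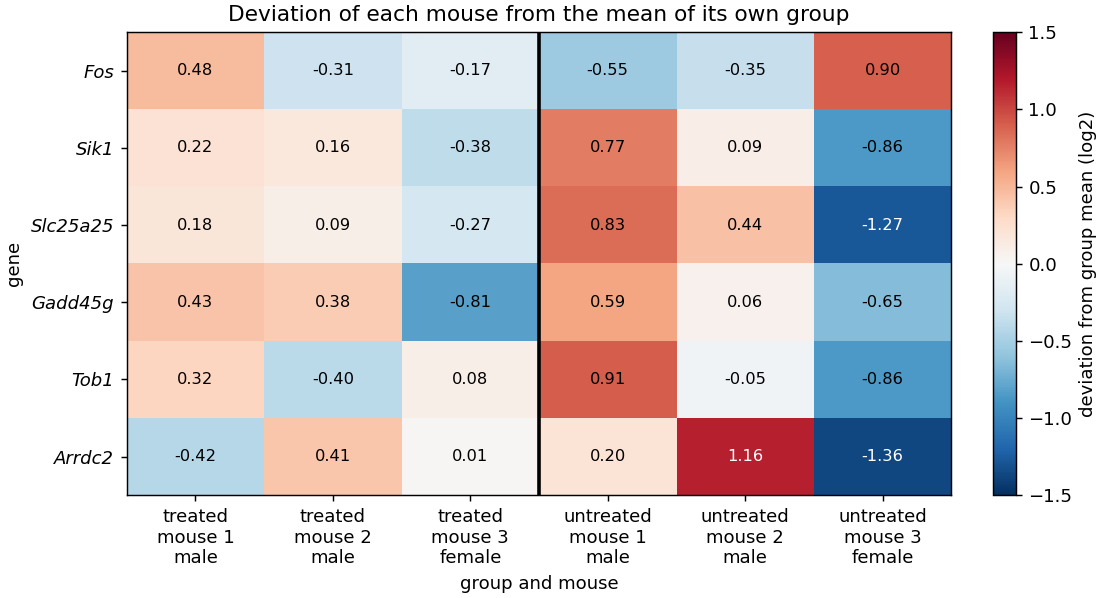
Deviation of each mouse from the mean of its own group, in log2 units, for the 6 genes (rows) and 6 mice (columns), red above and blue below the group mean. Sik1, Slc25a25 and Gadd45g show the same order of mice in both groups, and untreated mouse 3 is above its group mean for Fos and below it for the other 5 genes.

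Among the other named genes of the selection, those whose deviations were most like a gene's were taken by the highest correlation over the 6 mice. For Sik1 they were Cited4, a transcriptional coactivator, at 0.975, and Kcng4, a modifying subunit of voltage-gated potassium channels, at 0.970. Both were higher in treated mice, by 2.32-fold and 2.40-fold, whereas Sik1 was lower. Kcng4 at 0.809 stood next to Sik1 for Gadd45g, Cited4 at 0.920 stood next to Sik1 for Slc25a25, and D4Wsu53e, now named Rsrp1, at 0.928 and Cited4 at 0.913 were closest to Tob1. Without untreated mouse 3 the 6 values of Cited4, Kcng4 and D4Wsu53e given here were 0.691 to 0.928. For Fos the closest were Inhbb, a subunit of inhibins and activins, at 0.910 and Cxcl1, a chemokine, at 0.901, which were 0.524 and 0.522 without untreated mouse 3. Both are dim. Cxcl1 was at 5.30, 5.17 and 4.67 in treated mice 1, 2 and 3 and at 6.04 in untreated mouse 1, below the array medians of 6.07 to 6.13. Inhbb was at 6.16 to 6.37 in treated mice, just above them, so that dim values limit both correlations. For Arrdc2 the closest was Lcn2, the siderophore-binding lipocalin, at 0.867, and 0.826 without untreated mouse 3, although Lcn2 was lower in treated mice by 4.29-fold. Slc25a25 came next to it.

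The most opposite gene, chosen after the values were seen, was the slow troponin T gene Tnnt1 for Sik1, with a correlation of -0.992, and -0.986 without untreated mouse 3. Tnnt1 had log2 values of 8.79, 8.69 and 9.81 in treated mice 1, 2 and 3, against 9.64, 10.6 and 11.98 in untreated mice 1, 2 and 3. Tnnt1 and Sik1 were thus both lower in treated mice, while inside each group the mouse with the most Tnnt1, the female, had the least Sik1. Tnnt1 was the most opposite gene for Gadd45g as well, at -0.935.

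The sex contrast, female minus male with treatment as a term, was not used in the choice of the genes. The untreated female nevertheless enters both, and the median SD of the 6 genes exceeded that of all probe sets. The share of all probe sets given below is therefore not a like-for-like background. For the 3 genes Sik1, Slc25a25 and Gadd45g the female was below the mean of the males in both groups. The female minus male difference was -1.10 (SE 0.16) for Gadd45g, with the female 1.22 below the males among treated mice and 0.98 below them among untreated mice. It was -0.93 (SE 0.23) for Sik1 and -1.16 (SE 0.32) for Slc25a25. These 2 were less even between the groups. Among treated mice, the female minus the mean of the males was -0.57 for Sik1 and -0.40 for Slc25a25, against -1.29 and -1.91 among untreated mice. The unadjusted limma p-values of Gadd45g, Sik1 and Slc25a25 were 0.000305, 0.00522 and 0.0085, and 4.8% of all probe sets had one under 0.05. After adjustment over all 45037 probe sets none of the 6 genes passed, with a limma adjusted p of 0.638 for Gadd45g and 0.849 for the others, whereas 4 probe sets (0.00888%) did. Fos, Arrdc2 and Tob1 had differences of 0.55 (SE 0.37), -1.01 (SE 0.50) and -0.58 (SE 0.40). With 2 females in all, and these also the mice numbered 3, the contrast rests on 1 female in each group.

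The treatment difference was set against sex with an interaction term. With 1 female per group, the difference between the females is 1 mouse against 1 mouse, and the standard errors and p-values take their spread from the 4 males and limma's moderation over all probe sets. The untreated female is also the mouse that lay farthest out for most of these genes, by -1.27 from its group mean for Slc25a25. This mouse also entered the group differences that chose the genes. Without it Fos, Slc25a25, Gadd45g and Tob1 were at 1.71-fold, 1.96-fold, 1.67-fold and 1.70-fold, under the 2-fold limit of the selection. Sik1 and Arrdc2 were at 3.10-fold and 2.66-fold. The choice may therefore raise the share of the 6 genes at a low interaction p, and that share is a description. For Slc25a25 treated minus untreated was 2.61 between the females and 1.10 between the males, an excess of 1.502 (SE 0.30) in females with an unadjusted limma p of 0.00199. For Arrdc2 it was 3.46 between the females and 1.40 between the males, with an unadjusted limma p of 0.0196. For Fos it was -2.29 between the females and -0.69 between the males, with an unadjusted limma p of 0.0118. Tob1 had 2.13 between the females and 0.72 between the males. Sik1 had -0.72 between the females and -1.44 between the males, and Gadd45g had 0.91 between the females and 1.15 between the males. No gene passed after adjustment, with limma adjusted p-values from 0.571 for Slc25a25 to 0.9998, and the interaction called 0 of all probe sets (0%), while 3 of the 6 genes and 5.16% of all probe sets had an unadjusted p under 0.05. An ordinary variance per probe set also called 0.

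Other genes of the same pathways could be read only where the authors' deposited table names them. Of 26 immediate early genes on a background list, Fos was the only one named. Of 14 cAMP and CREB coactivator targets 4 were named, Fos and Sik1 lower and Slc25a25 and Pck1 higher in treated mice. Of 13 growth-arrest genes Gadd45g and Tob1 were named, both higher, and of 15 glucocorticoid-induced genes Arrdc2 was higher and Lcn2 lower. None of the 10 muscle atrophy or 15 circadian genes was named. Sik1 was the only named member of the 3 salt-inducible kinases, Arrdc2 of 5 alpha-arrestins and Slc25a25 of 3 ATP-magnesium carriers. No gene of these lists had a limma adjusted p under 0.05, and genes that are not named were not analysed here.

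Of 9 skeletal muscle markers Myl2 and Tnnt1 were named, both slow-fibre genes, with a summed linear level of 469 to 1372 in treated and 909 to 13725 in untreated mice. All 3 named markers of the 6-gene adipocyte list were higher in treated mice, with a summed linear level of 3261 to 10873 in treated and 1831 to 4028 in untreated mice. Mbp was the only named gene of 3 Schwann cell markers, at 155 to 218 in treated and 261 to 509 in untreated mice. Macrophage, neutrophil, fibroblast, endothelial and satellite cell markers had no named gene. The part of these cells in the 6 differences was not tested.

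The 6 arrays had median log2 values of 6.09 to 6.13 in treated and 6.07 to 6.08 in untreated mice, so that every treated array lay above every untreated one. The arrays correlated at 0.974 to 0.995 with one another, and untreated mouse 3 had the lowest mean correlation, 0.983. The 3'-minus-5' log2 signal of 4 spiked-in poly-A RNAs, a measure of labelling, was 1.46 ± 0.121 in treated and 1.63 ± 0.168 in untreated mice (SD, n = 3 each, exact two-sided permutation p = 0.3, where 0.1 is the smallest possible). The same measure for Gapdh was 0.197 ± 0.0395 in treated and 0.444 ± 0.199 in untreated mice (SD, n = 3 each, exact two-sided permutation p = 0.2). With the spike value as a term, Sik1 was 3.50-fold lower, Slc25a25 1.90-fold higher and Tob1 1.39-fold higher, each moved by over 1.5 times. Fos was 2.02-fold lower, Arrdc2 3.91-fold higher and Gadd45g 1.41-fold higher.

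**Figure D4:**
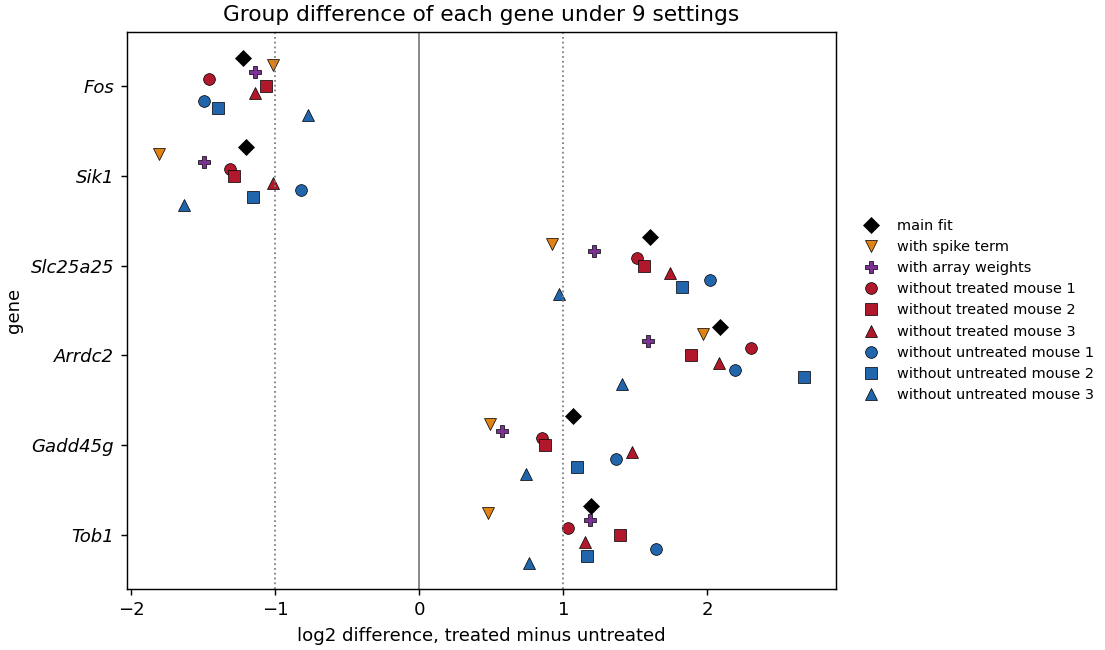
Log2 difference, treated minus untreated, of each gene with all 6 mice, with the spike value as a term, with array weights and with each mouse left out. Dotted lines mark 2-fold. All points of a gene lie on one side of 0, and leaving out untreated mouse 3 gives 1.71-fold for Fos and 3.10-fold for Sik1.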

How the data were processed

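Quadriceps RNA of 3 treated and 3 untreated mice was hybridised to arrays, 1 per mouse. The sample titles gave the groups. The authors deposited log2 values per probe set. Among tools, the submitters' processing notes list Transcriptome Analysis Console, Affymetrix Expression Console and RMA, whose roles and settings they leave out. No genome build is named. A second deposited table holds 60 probe sets with gene symbols, the same log2 values (to within 0.00033), p-values, the geometric mean signal of each class and the fold of treated over control, per the file headers.

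After removal of 64 control probe sets, 45037 remained. Tests used R 4.3.3 and limma 3.58.1 (lmFit, eBayes, two-sided, Benjamini-Hochberg over all, threshold 0.05), a step tested on simulated data. No detection calls were used, and RMA compresses dim values. Number of arrays limits precision. The labels call the mice biological replicates.

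The genes, lists and tests were chosen with earlier results of these data known. The rule named all probe sets of the 6 genes among the 60 of the authors' deposited table. For each it added the 2 other named probe sets with the highest Pearson correlation of deviations from group means over 6 mice. Alternatives were an intensity trend, ordinary variance, median centring, quantile normalization, a filter on dim probe sets (a higher group mean of at least 100), replicate block, sex, array weights, spike term and each mouse left out. Promoter sequences are from RefSeq, GRCm38.p6. Figures were drawn with matplotlib 3.10.9.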

Additional observations from a re-analysis of the deposited data

How the results depend on the processing

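Of the 16 settings run on the treatment difference of the 6 genes, 5 (intensity trend, ordinary variance, the filter on dim probe sets, replicate block and sex) cannot move it in this balanced design. Under the other 11, which reuse the values that chose the genes, no gene changed direction. The fold of Fos ranged from 1.71 to 2.82, of Sik1 from 1.76 to 3.50, of Slc25a25 from 1.90 to 4.06, of Arrdc2 from 2.66 to 6.37, of Gadd45g from 1.41 to 2.78 and of Tob1 from 1.39 to 3.13. Over all probe sets limma called 0 for treatment under every setting but an ordinary variance, which called 1. The 132 probe sets at 2-fold became 200 with array weights and 64 with the spike term, and 94 to 522 when 1 mouse was left out. The highest of these counts came without untreated mouse 1, and 278 were found without treated mouse 2. The 3443 at an unadjusted p under 0.05 became 7986 with array weights, 1507 with the spike term, 1287 with the filter on dim probe sets, which tests fewer probe sets, and 1434 to 7456 when 1 mouse was left out. Of the 3443, 1982 were higher in treated mice, against 1194 of 3395 after median centring. The 4 probe sets called for sex became 8 with an intensity trend, 0 with an ordinary variance, 2 after median centring, 1 with the filter on dim probe sets, and 0 to 3 when 1 male was left out. The interaction called 0 to 5 when 1 male was left out, 5 without untreated mouse 1 and 3 without untreated mouse 2, and none of the 6 genes was among them. The interaction of Gadd45g, -0.24, ranged from -0.504 to 0.027 when 1 male was left out, with 0.027 without untreated mouse 2, and the cause was not tested. Same-numbered mice did not deviate together throughout, with correlations of 0.517, -0.0824 and 0.183 for numbers 1, 2 and 3. Whether the numbers pair the mice cannot be decided from these values. The deviations of a group sum to 0, and differently numbered mice were not compared. With the replicate block 0 probe sets were called, 5124 had an unadjusted p under 0.05 and 132 were at 2-fold. With 1 female per group, the interaction cannot be fitted without either of them. The sex difference could be, but it was not run with a female left out.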

Other observations

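Hivep3, a zinc finger transcription factor gene that was 2.38-fold lower in treated mice, was the most opposite named gene to Tob1, with a correlation of deviations of -0.997 over the 6 mice and -0.996 without untreated mouse 3. It had log2 values of 5.90, 6.68 and 6.07 in treated mice 1, 2 and 3, against 6.48, 7.46 and 8.48 in untreated mice 1, 2 and 3. For Slc25a25 the most opposite gene was Tnnc1, the slow troponin C gene, at -0.973, and -0.945 without untreated mouse 3. Both genes were singled out after their values were seen, from 54 named probe sets, so that the correlations are a description.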
